A study of Mus musculus with 8 samples.

Results

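The transcripts described here are those that λ820 cells gave above background without drug and no longer gave above background under the drug combination. They were chosen from the named probes of the array by the detection p-value that was deposited for each probe and array, a measure of how often background alone would give so bright a signal. A probe was taken if this value was under 0.01 on both DMSO arrays and 0.05 or more on both combination arrays. Histone, Zfp, Slc, Arhgef, Arhgap, H2-, Fcr, Gbp, Ifi and Oas genes were left out by name, as were Adam19, Clec2d, Rasgrp1, Slamf7, Bcl2, Usp18 and Vpreb3. This gave 179 probes of 170 genes, out of 23978 named probes of 16593 genes and 25697 probes in all. Of 8974 named probes detected in DMSO by the same threshold, 199 or 2.22% were lost in the combination, and the exclusions by name removed 20 of these. The loss in the combination is therefore what defines these genes, and it is described below without a test.

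λ820 is a mouse lymphoma cell line driven by Myc. The cells were grown for 24 h in 1 of 4 ways, with 2 arrays each. The combination group received 10 µM RVX2135 and 10 µM VE-821, the single-drug groups received 10 µM RVX2135 or 10 µM VE-821, and the control group received DMSO at a dilution of 1 to 1000. The labels name no separate cultures behind the 2 arrays of a group, so the spread between them may be technical, and n = 2 holds for every value.

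RVX2135 inhibits BET proteins, which bind acetylated histones through their bromodomains and help RNA polymerase to leave the promoter. VE-821 inhibits ATR, the kinase that senses stalled replication forks and signals through Chek1. B cells are defined by a surface antigen receptor, by coreceptors such as Cd22 that set its threshold, and by transcription factors such as Pou2f2 that keep the lineage programme running. For a probe at the edge of detection a modest fall is enough to reach background, and the brightness of a probe does not give the level of its gene.

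Between 11012 and 11478 probes were detected per array at a detection p-value under 0.05, or 42.9% to 44.7% of all probes. The upper quartile of the non-normalized intensity ran between 59.0 on the second combination array and 91.7 on the first DMSO array, which was the brightest of the 8. Replicate arrays correlated at 0.994 to 0.996 on the log2 scale. Of 12 B lymphocyte markers 9 had a probe, and 7 of these were detected in the combination, 6 with RVX2135, 7 with VE-821 and 7 in DMSO. The probes of Ms4a1 and Pax5 were the undetected ones in every group. The summed intensity of the 9 markers was 972 to 1059 in the combination, 5638 to 6508 with RVX2135, 5255 to 5941 with VE-821 and 10912 to 12923 in DMSO. Of the marker lists of stroma, myeloid, erythroid, T and NK cells, none had more than 3 genes detected in any group. In a bulk RNA sample fewer cells of a type and less RNA per cell cannot be told apart, and the part of this fall in B cell markers in the losses below was not tested.

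Most of the lost probes were dim before any drug was given. Their median DMSO intensity was 31.4, with a range from 17.1 to 274.8, against a median of 171.2 over all 8974 probes detected in DMSO. The share of probes lost in the combination was 11.5% where the mean DMSO intensity was under 25, 7.22% between 25 and 50, 1.65% between 50 and 100, 0.759% between 100 and 200, and 0.146% at 200 or more. Of the 179 lost probes, 56 lay under 25 and 91 between 25 and 50. A probe below background has only an upper bound. Each loss is therefore given as a lower bound on the fold, from normalized intensities and the lowest signal still detected on an array. The normalized intensities hold an offset that was added to every value before log2, and it makes these bounds smaller, most of all for dim probes. On the non-normalized scale the lowest detected signal was 8.86 on the first combination array and 8.57 on the second. The bound for DMSO over the combination had a median of 1.70-fold and ran from 1.23-fold to 10.2-fold. It reached 2-fold for 62 probes, 3-fold for 25 and 5-fold for 10.

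**Figure D1:**
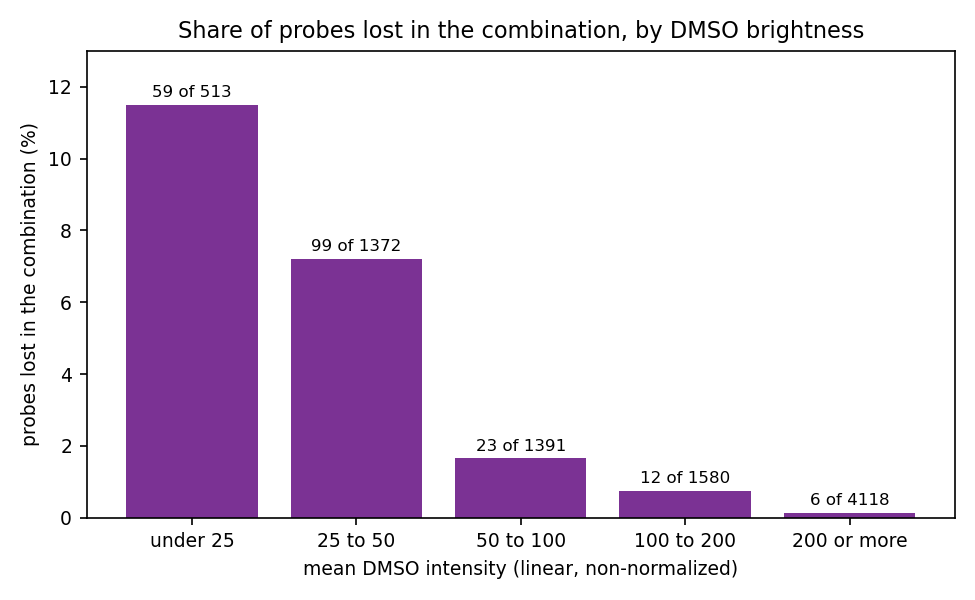
Share of named probes detected in DMSO (detection p-value under 0.01 on both arrays) that were lost in the combination, in percent on the vertical axis, by mean DMSO intensity (linear, non-normalized) on the horizontal axis; the numbers over the bars give lost probes of all probes in the bin. The share is 11.5% in the dimmest bin and 0.146% in the brightest.

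The thresholds passed through a dense stretch of dim probes. Just inside, the probe of Iqcc had detection p-values of 0.0501 and 0.0752 on the combination arrays and 0.00877 and 0.00251 on the DMSO arrays. Mgll, a lipase that splits monoacylglycerols, and Phka2, a subunit of phosphorylase kinase, each had a second combination array at 0.0501, and Abraxas1 and a Myo1c probe each had a DMSO array at 0.00877. Just outside, the fatty acid binding protein Fabp5 was missed because its second combination array stood at 0.0489. Its intensity was 3.78 and 8.64 in the combination, against 76.4 and 75.3 in DMSO, a wider gap than most members showed. Nudt3 and Spns3 were missed in the same way, each with 1 combination array at 0.0489. Deptor, Xntrpc and a further probe of Il15ra were missed on the DMSO side, each with a value just above 0.01 on the second DMSO array. With replicate 1 left out of every group the same thresholds took 388 probes, and with replicate 2 left out they took 350.

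The brightest transcript that was lost belonged to Hvcn1, the voltage-gated proton channel of B cells and phagocytes. Its intensity was 7.80 and 6.58 in the combination, 81.2 and 72.1 with RVX2135, 162 and 145 with VE-821, and 293 and 257 in DMSO. The 4 groups did not overlap, each single drug left an intermediate level, and DMSO was at least 10.2-fold higher than the combination. Thbd, which encodes the thrombin receptor thrombomodulin, read -4.51 and 1.54 in the combination, 13.3 and 15.7 with RVX2135, 46.4 and 38.0 with VE-821, and 242 and 186 in DMSO. Its bound was 8.05-fold, and RVX2135 alone brought it close to background. Cbfa2t3, a corepressor of the ETO family, read 3.76 and 0.131 in the combination, 61.1 and 43.3 with RVX2135, 99.3 and 78.3 with VE-821, and 219 and 169 in DMSO. DMSO was at least 7.34-fold above the combination for this gene.

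The tetraspanin gene Tspan2 read 7.56 and 8.49 in the combination, 59.0 and 50.8 with RVX2135, 74.3 and 70.6 with VE-821, and 243 and 145 in DMSO. Its DMSO arrays lay furthest apart among the brightest lost probes, and both were above every drug-treated array. Sla encodes an adaptor that lowers antigen receptor levels. It read -1.32 and -2.33 in the combination, 5.34 and 13.1 with RVX2135, 109.8 and 104 with VE-821, and 191 and 164 in DMSO. RVX2135 left Sla detected on 1 of 2 arrays, while both VE-821 arrays stayed far above background. Osbp2, an oxysterol-binding protein, read -3.01 and 1.05 in the combination, 17.2 and 17.9 with RVX2135, 65.0 and 75.3 with VE-821, and 177 and 174 in DMSO. Lgr5, a receptor for R-spondins that strengthens Wnt signalling, read 0.0868 and 2.49 in the combination, 24.5 and 14.9 with RVX2135, 75.3 and 76.1 with VE-821, and 189 and 146 in DMSO. The bounds for DMSO over the combination were 7.19-fold for Tspan2, 6.82-fold for Sla, 6.75-fold for Osbp2 and 6.47-fold for Lgr5.

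Tgfb3 encodes a ligand of the TGF-beta family. It read 5.71 and 5.87 in the combination, 121 and 63.3 with RVX2135, 75.7 and 69.8 with VE-821, and 147 and 138 in DMSO. The RVX2135 arrays of this probe were far apart and overlapped the VE-821 range. Gvin1, a very large interferon-inducible GTPase, read 4.98 and 5.13 in the combination, 20.4 and 18.2 with RVX2135, 99.5 and 74.9 with VE-821, and 141 on both DMSO arrays. Camk2b, a calcium-dependent kinase subunit, read 6.73 and 1.80 in the combination, 28.6 and 21.9 with RVX2135, 45.0 and 40.9 with VE-821, and 150.1 and 127 in DMSO. Both genes kept a detected signal on every single-drug array. Cd22, the inhibitory sialic acid-binding coreceptor of the B cell receptor, read -3.71 and 5.81 in the combination, 37.1 and 29.6 with RVX2135, 53.8 and 59.1 with VE-821, and 139 and 112 in DMSO. Kcnn4, a calcium-activated potassium channel of lymphocytes, read -1.47 and -1.25 in the combination, 20.8 and 15.9 with RVX2135, 46.6 and 40.0 with VE-821, and 114 and 101 in DMSO. The bounds were 5.59-fold for Tgfb3, 5.55-fold for Gvin1, 5.43-fold for Camk2b, 4.97-fold for Cd22 and 4.34-fold for Kcnn4. In all 12 of these brightest probes both RVX2135 arrays and both VE-821 arrays lay below both DMSO arrays, on the non-normalized scale.

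**Figure D2:**
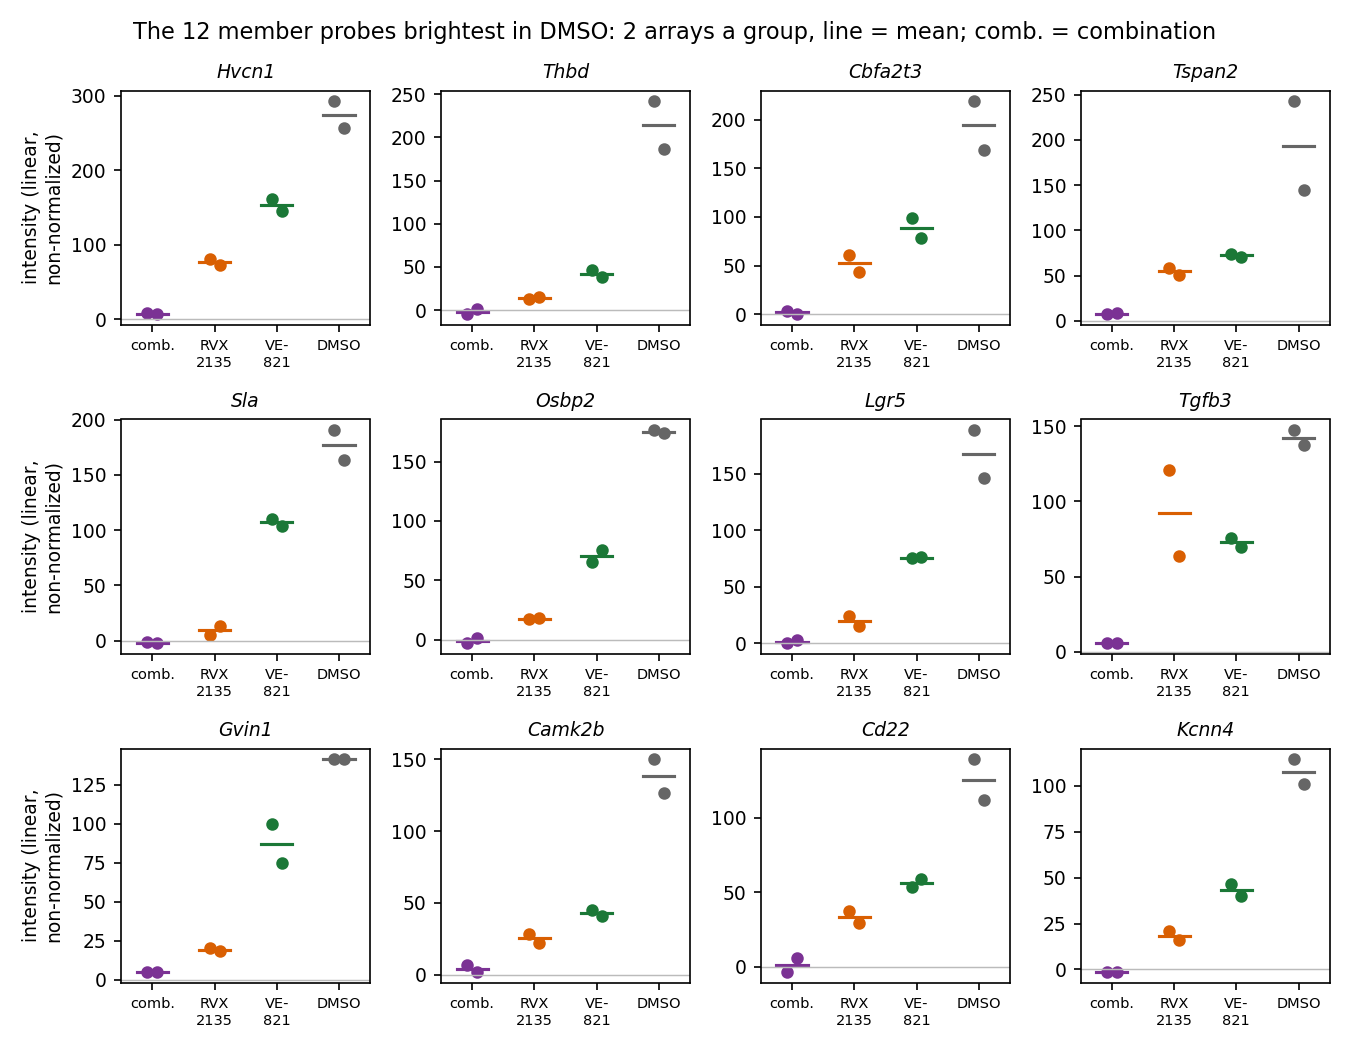
Non-normalized intensity (vertical axis, linear scale, background-subtracted) of the 12 lost probes that were brightest in DMSO, in the combination (comb.), with RVX2135, with VE-821 and in DMSO; points are the 2 arrays of a group and lines their mean. All combination points sit at background, between -4.51 and 8.49, and the single-drug points lie between them and DMSO.

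Promoter sequence is shown for a few of these genes, since their transcripts went down together and the promoter is the stretch on which transcription starts. The windows of 300 bases cover the start of the gene in RefSeq, build GRCm38.p6, and most of each lies upstream of it. They are printed 5′ to 3′ on the strand of the gene. The 3 brightest lost genes with 1 window in the table are Camk2b, Cd22 and Kcnn4, and the 2 brightest that RVX2135 alone also took to background are Zc4h2 and Rab19. These 5 genes were chosen after their values were seen. Capitals mark a match, on either strand, to the E-box CACGTG, the CCAAT box, the GC box GGGCGG, the ETS motif CCGGAAG, the TATA motif TATAAA, the octamer part ATGCAAA or the E2F motif TTCGCGC, and matches may overlap.
Camk2b promoter, chr11:6065699-6065998, minus strand: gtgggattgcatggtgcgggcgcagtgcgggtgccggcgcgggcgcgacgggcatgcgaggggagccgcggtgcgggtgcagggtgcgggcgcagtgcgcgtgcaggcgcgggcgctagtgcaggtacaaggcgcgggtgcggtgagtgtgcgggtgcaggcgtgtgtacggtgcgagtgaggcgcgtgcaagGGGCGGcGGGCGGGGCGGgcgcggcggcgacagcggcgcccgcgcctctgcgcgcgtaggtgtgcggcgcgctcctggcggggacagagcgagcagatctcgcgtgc
Cd22 promoter, chr7:30878979-30879278, minus strand: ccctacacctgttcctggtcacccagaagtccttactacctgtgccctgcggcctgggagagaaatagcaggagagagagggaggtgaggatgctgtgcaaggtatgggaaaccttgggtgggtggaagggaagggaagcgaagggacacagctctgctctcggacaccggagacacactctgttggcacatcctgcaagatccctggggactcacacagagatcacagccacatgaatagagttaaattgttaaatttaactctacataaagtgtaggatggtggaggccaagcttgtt
Kcnn4 promoter, chr7:24370013-24370312, plus strand: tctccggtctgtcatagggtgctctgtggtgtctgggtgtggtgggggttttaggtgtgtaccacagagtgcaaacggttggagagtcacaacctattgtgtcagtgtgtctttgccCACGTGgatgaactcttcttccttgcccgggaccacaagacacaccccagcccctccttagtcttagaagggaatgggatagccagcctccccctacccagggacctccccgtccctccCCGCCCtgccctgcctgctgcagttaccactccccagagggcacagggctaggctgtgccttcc
Zc4h2 promoter, chrX:95658460-95658759, minus strand: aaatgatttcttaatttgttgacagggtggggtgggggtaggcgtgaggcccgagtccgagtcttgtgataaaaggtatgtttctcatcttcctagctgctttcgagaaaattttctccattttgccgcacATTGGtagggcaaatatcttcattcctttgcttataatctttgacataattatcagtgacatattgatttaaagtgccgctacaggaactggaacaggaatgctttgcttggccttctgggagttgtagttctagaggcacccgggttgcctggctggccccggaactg
Rab19 promoter, chr6:39381103-39381402, plus strand: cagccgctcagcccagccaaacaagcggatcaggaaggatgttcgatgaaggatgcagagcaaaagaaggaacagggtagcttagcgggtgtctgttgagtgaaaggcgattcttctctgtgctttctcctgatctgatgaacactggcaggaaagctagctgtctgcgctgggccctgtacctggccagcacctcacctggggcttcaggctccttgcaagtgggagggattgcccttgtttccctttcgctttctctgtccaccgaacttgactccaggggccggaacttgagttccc
Camk2b carries a run of GGGCGG (GC box) matches, Kcnn4 a CACGTG (E-box) and a GC box on the other strand, and Zc4h2 a CCAAT box on the other strand. The windows of Cd22 and Rab19 hold none of these letters, which says nothing of the factors that act there.

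Of the 170 lost genes, 134 had 201 promoter windows in the table. GGGCGG was found in 51.7% of these windows, in 64.6% of the 7005 windows of all genes detected in DMSO and in 35.7% of all 32851 windows. CCGGAAG, the ETS motif, was found in 12.4%, 20.8% and 8.86% of the same sets. CCAAT was found in 33.3%, 39.1% and 37.4%, and CACGTG in 8.96%, 11.1% and 7.15%. TATAAA was present in 3.48%, 6.62% and 13.6%, ATGCAAA, part of the octamer, in 1.99%, 3.37% and 4.63%, and TTCGCGC, the E2F motif, in 1.99%, 3.63% and 1.59%. Each motif was thus less frequent in the windows of the lost genes than in those of all genes detected in DMSO, a description for which no test was made. The lost genes spanned a median of 26921 bases on the genome, against 20477 bases for the genes detected in DMSO.

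A single drug rarely took these transcripts to background. With the loss defined as a detection p-value of 0.05 or more on both arrays, 26 probes of 24 genes, or 14.5% of the members, were also lost with RVX2135 alone. VE-821 alone took 5 probes of 5 genes, or 2.79%, to background. No probe was lost with both single drugs, and 148 probes of 142 genes, or 82.7%, were lost with neither. Among all 8974 probes detected in DMSO, RVX2135 took 54 or 0.602% to background and VE-821 took 13 or 0.145%. These counts share the DMSO arrays with the rule that chose the members and carry no test. On all 4 single-drug arrays 105 members were detected, and 53 had a detection p-value under 0.01 on all 4. The count for RVX2135 depends on how loss is defined, since a further 36 members were detected on only 1 of the 2 RVX2135 arrays, and 18 on only 1 of the 2 VE-821 arrays.

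In normalized log2 intensity the median difference from DMSO over the members was -0.53 with RVX2135 and -0.35 with VE-821. Over all 11761 probes in the fit the same medians were 0.00 and -0.02. For the combination, where no member was detected on either array, only the bounds above hold. These comparisons share the DMSO arrays, on which members had to be detected, so the values are a description. Both RVX2135 arrays lay below both DMSO arrays for 161 of 179 members on the non-normalized scale, and both VE-821 arrays did so for 124. Both combination arrays lay below both RVX2135 arrays for 150 members and below both VE-821 arrays for 175. Arrays also differed in brightness. Over all named probes detected in DMSO the median intensity was 186 and 154 on the DMSO arrays and 155 and 141 with RVX2135. It was 158 and 163 with VE-821 and 145 and 122 in the combination. The same counts over all probes were not made, so whether these counts are particular to the members was not tested.

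**Figure D3:**
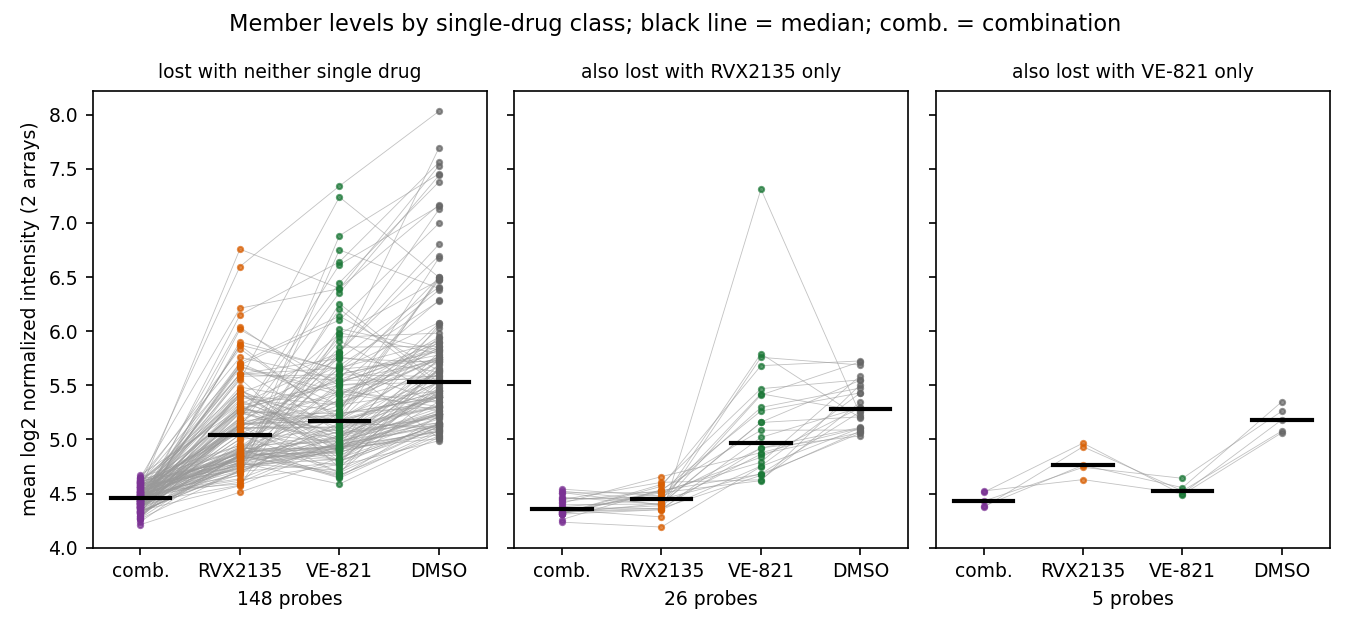
Mean normalized log2 intensity of each lost probe (vertical axis) in the combination (comb.), with RVX2135, with VE-821 and in DMSO, for the 148 probes lost with neither single drug, the 26 also lost with RVX2135 only and the 5 also lost with VE-821 only; grey lines join a probe and black bars are medians. The classes were cut on the single-drug arrays, and the probe that stands far above the others with VE-821 in the middle panel is Clec2m.

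The probes that RVX2135 alone also took to background were all dim in DMSO. The class split used the RVX2135 arrays, so these values are not tested. Zc4h2, a zinc finger gene mutated in a human neurodevelopmental disorder, had 2 member probes in this class. The brighter read 2.24 and 5.95 in the combination, 0.619 and 4.38 with RVX2135, 28.7 and 29.9 with VE-821, and 48.3 and 34.0 in DMSO. The other Zc4h2 probe read 5.85 and 2.37 in the combination, 5.83 and 2.95 with RVX2135, 13.4 and 17.98 with VE-821, and 22.9 and 18.1 in DMSO. On both probes the RVX2135 arrays were as low as the combination arrays and VE-821 left a detected signal. Rab19, a small GTPase of vesicle traffic, read -4.97 and 3.10 in the combination, 6.77 and 6.25 with RVX2135, 32.9 and 45.0 with VE-821, and 43.9 and 37.9 in DMSO. Gpr18, a G protein-coupled receptor of lymphocytes, read 3.05 and -1.38 in the combination, 5.43 and -1.80 with RVX2135, 41.6 and 41.1 with VE-821, and 39.8 and 39.1 in DMSO. For Gpr18 both VE-821 arrays were above both DMSO arrays, by a mean of 1.05-fold, while the RVX2135 arrays could not be told from background.

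Pkd1l3, a channel subunit of taste cells, read 0.775 and -0.132 in the combination, 4.58 and 1.01 with RVX2135, 21.0 and 22.3 with VE-821, and 43.4 and 26.2 in DMSO. Ptpn7, the haematopoietic phosphatase that acts on MAP kinases, read -0.437 and 0.769 in the combination, 6.77 and 6.94 with RVX2135, 39.6 and 23.8 with VE-821, and 42.5 and 26.9 in DMSO. Its VE-821 and DMSO arrays overlapped. Il7r, a receptor chain for interleukin 7, read 1.05 and 0.404 in the combination, 1.10 and 1.45 with RVX2135, 17.9 and 18.2 with VE-821, and 30.8 and 21.4 in DMSO. Ltbp4, which binds latent TGF-beta in the matrix, had 2 member probes, and both were lost with RVX2135 and detected on both VE-821 arrays. The brighter Ltbp4 probe read 2.48 and 8.43 in the combination, 7.35 and 1.30 with RVX2135, 31.3 and 20.5 with VE-821, and 30.3 and 33.0 in DMSO.

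Myadm, a membrane protein of myeloid and other cells, and Ift43, a part of the intraflagellar transport complex, were also low with VE-821. Myadm read -1.02 and 0.997 in the combination, 6.35 and 4.79 with RVX2135, 14.7 and 10.5 with VE-821, and 35.8 and 35.1 in DMSO. Ift43 read -0.408 and 1.37 in the combination, 8.49 and 1.34 with RVX2135, 11.3 and 5.99 with VE-821, and 29.2 and 36.0 in DMSO, and was detected on 1 of 2 VE-821 arrays. The class also held the homeobox gene Hoxb7, the cytokine subunit gene Il12a, the proteoglycan gene Sdc1, the integrin gene Itgb4 and the sorting receptor gene Sorl1.

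The 5 probes that VE-821 alone also took to background were close to the detection limit in DMSO. Syk, the kinase that starts signalling from the B cell receptor, read 3.83 and 0.784 in the combination, 15.7 and 5.36 with RVX2135, 7.78 and 6.82 with VE-821, and 29.9 and 25.2 in DMSO. Neil3, a DNA glycosylase that repairs oxidised bases and crosslinks, read 5.00 and 5.70 in the combination, 17.04 and 11.97 with RVX2135, 7.90 and 3.16 with VE-821, and 19.2 and 18.6 in DMSO. Syk was detected on 1 of 2 RVX2135 arrays and Neil3 on both. Ceacam1, a cell adhesion molecule, read 3.36 and 7.29 in the combination, 4.91 and 10.2 with RVX2135, 7.40 and 4.35 with VE-821, and 22.2 on both DMSO arrays. Isoc2b read 6.12 and 0.781 in the combination, 6.43 and 13.2 with RVX2135, 9.34 and 9.36 with VE-821, and 24.3 and 24.9 in DMSO. The unconventional myosin Myo1c had 1 probe in this class, at 2.28 and 1.79 in the combination, 8.03 and 19.3 with RVX2135, 7.39 and 5.72 with VE-821, and 19.0 and 19.7 in DMSO. A further Myo1c probe read 7.91 and 4.40 in the combination, 11.6 and 10.4 with RVX2135, 16.3 and 15.2 with VE-821, and 19.1 and 16.1 in DMSO. The 2 Myo1c probes were both lost in the combination but fell in different single-drug classes.

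The arrays of the 2 single drugs took no part in the choice of the members, so RVX2135 against VE-821 could be tested. At the same dose and time, 56 of 179 member probes were lower with RVX2135 and 14 were higher, by limma's moderated test with Benjamini-Hochberg adjustment over all 11761 probes at 0.05. The lower calls came to 31.3% of the members against 11.9% of all probes, and the higher calls to 7.82% against 12.5%. The remaining 109 members were not called, and 95 members had an unadjusted p under 0.05. The lower calls covered 54 genes and the higher calls 13. The median log2 difference, RVX2135 minus VE-821, was -0.17 over the members and 0.01 over all probes in the fit, where a single difference had a median standard error of 0.12. The offset of 16 added before log2 shrinks the differences of dim probes. The members were dimmer than the other probes in the fit, and whether brightness changes the share called was not tested.

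**Figure D4:**
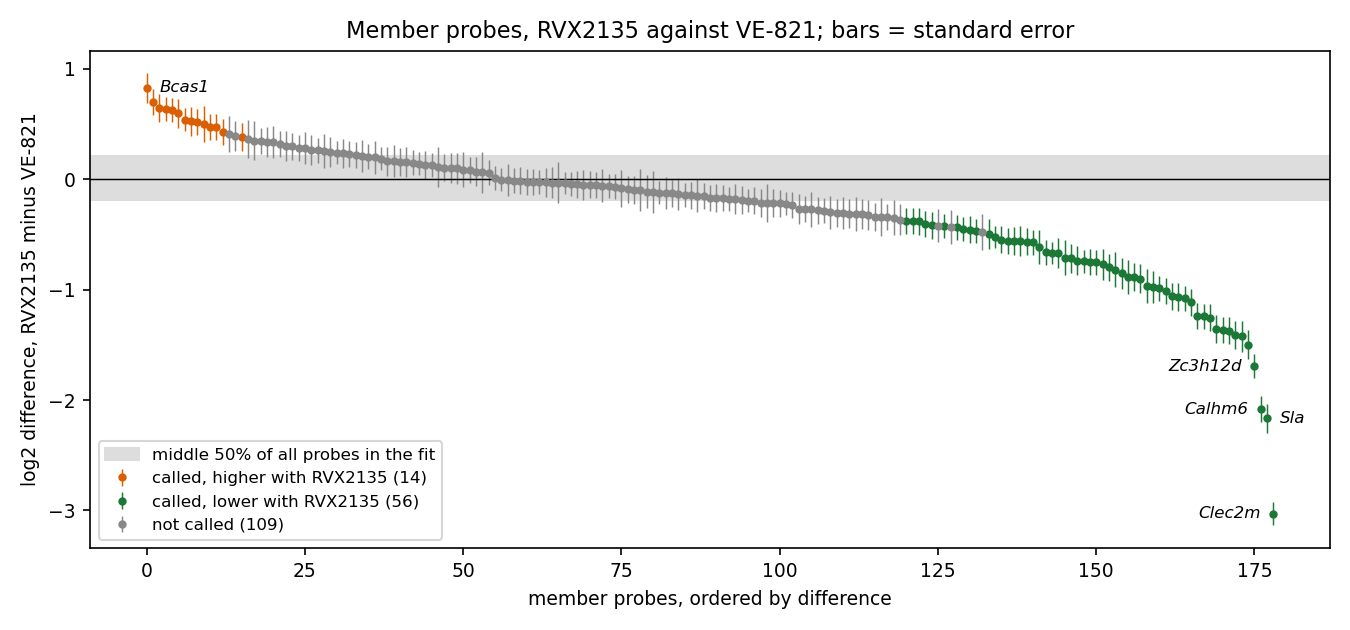
Log2 difference in normalized intensity, RVX2135 minus VE-821 (vertical axis), of each of the 179 lost probes, ordered along the horizontal axis; bars are the standard error of the fit and the grey band holds the middle of all 11761 probes. 14 probes were called higher and 56 lower with RVX2135. Points of the 26 probes lost with RVX2135, Clec2m at the low end among them, and of the 5 lost with VE-821 are set against a level at background, so their plotted size is not exact. Bcas1 is at the high end at 0.83.

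Clec2m, a C-type lectin-like gene of the family whose members are ligands of natural killer cell receptors, gave the widest difference. It read 2.70 and -0.0885 in the combination, 0.845 and -3.61 with RVX2135, 140.4 and 160.4 with VE-821, and 25.8 and 21.6 in DMSO. VE-821 alone brought the transcript to 4.25-fold of DMSO, and with RVX2135 present, alone or beside VE-821, it was at background. VE-821 was at least 6.11-fold higher than RVX2135 (limma, adjusted p = 8.69e-09). Sla differed by -2.17 (RVX2135 minus VE-821, standard error 0.13, limma adjusted p = 8.86e-07) and Calhm6, a channel-forming protein of the calcium homeostasis modulator family, by -2.08 (standard error 0.12, limma adjusted p = 4.01e-07). Calhm6 read 6.68 and 3.90 in the combination, 6.19 and 10.5 with RVX2135, 90.5 and 104 with VE-821, and 88.4 and 66.0 in DMSO.

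Zc3h12d, which encodes a CCCH zinc finger protein of the Regnase family that degrades immune mRNAs, was also higher with VE-821 than in DMSO. It read 7.05 and 3.41 in the combination, 28.3 and 28.7 with RVX2135, 137 and 148 with VE-821, and 88.1 and 78.7 in DMSO. The difference between the single drugs was -1.69 (standard error 0.11, limma adjusted p = 1.05e-06). Smpdl3b, a membrane lipase that restrains Toll-like receptor signalling, read 4.27 and 8.08 in the combination, 7.49 and 12.6 with RVX2135, 59.8 and 69.1 with VE-821, and 33.6 and 33.1 in DMSO. Its difference was -1.50 (standard error 0.13, limma adjusted p = 1.32e-05). For Zc3h12d and Smpdl3b the VE-821 arrays stood above DMSO and the RVX2135 arrays below it, with no overlap. Tcam1, first known as an adhesion molecule of the testis, read 1.72 and 0.503 in the combination, 10.2 and 2.61 with RVX2135, 50.3 and 51.7 with VE-821, and 44.3 and 42.6 in DMSO. Gvin1 differed by -1.42 and Tcam1 by -1.41 (limma adjusted p = 2.89e-05 and 1.52e-05). Gpr18 was not detected on either RVX2135 array, and VE-821 was at least 2.08-fold higher (limma adjusted p = 1.27e-05). Sla, Calhm6, Smpdl3b, Tcam1, Pecam1, Il6ra, Sirt5, Pou2f2, Cd180 and Trim37 were detected on 1 of 2 RVX2135 arrays, and Bcas1 and Septin10 on 1 of 2 VE-821 arrays, so their differences rest in part on a value at background.

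In all, 14 members had both VE-821 arrays above both DMSO arrays. Of these, 13 were called lower with RVX2135 than with VE-821. They were picked for high VE-821 arrays, which that call uses again, so the 13 are no separate result. The same counts over all probes were not made. In mean non-normalized intensity Clec2m and Osm passed 2-fold over DMSO, and 8 members passed 1.5-fold. With the offset of 16 in the normalized values only Clec2m passed 2-fold, and 6 passed 1.5-fold. Osm, a cytokine gene, read 1.46 and 0.146 in the combination, 7.64 and 10.9 with RVX2135, 41.6 and 36.8 with VE-821, and 19.8 and 15.8 in DMSO. Besides the genes above, this set held the interleukin 6 receptor gene Il6ra, and Igtp, Dhx58 and Trim30a of the interferon response. The RVX2135 arrays lay above DMSO in this way for 1 member, Fyco1. VE-821 against DMSO shares arrays with the choice of the members, so these are counts without a test.

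The 14 probes that were higher with RVX2135 had smaller differences. Bcas1, a protein of myelin-forming cells that is amplified in some breast cancers, read 3.96 and 0.553 in the combination, 28.8 and 29.4 with RVX2135, 15.8 and 7.07 with VE-821, and 36.3 and 31.5 in DMSO. It differed by 0.83 (standard error 0.13, limma adjusted p = 0.000978). Ralyl, an RNA-binding protein, read 3.49 and 3.70 in the combination, 47.3 and 33.8 with RVX2135, 19.1 and 25.1 with VE-821, and 96.9 and 72.6 in DMSO, and differed by 0.70 (limma adjusted p = 0.00142). Tnfrsf13b encodes TACI, the receptor for the B cell survival factors BAFF and APRIL. It read 7.83 and 6.94 in the combination, 35.1 and 41.9 with RVX2135, 19.6 and 25.7 with VE-821, and 40.4 and 40.8 in DMSO, and differed by 0.65 (limma adjusted p = 0.00292). In these 3 genes the RVX2135 arrays stayed near or under DMSO and the VE-821 arrays lay lower.

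Sspn, a part of the dystrophin complex, differed by 0.64, and Rubcnl, an autophagy regulator, by 0.63 (limma adjusted p = 0.00169 and 0.00188). Fyco1, which links autophagosomes to kinesin, differed by 0.60 (limma adjusted p = 0.00648). It read 0.701 and 5.88 in the combination, 35.4 and 29.0 with RVX2135, 22.9 and 15.3 with VE-821, and 24.2 and 18.9 in DMSO. Map2k6, the kinase that activates p38, had 2 member probes and both were higher with RVX2135, by 0.54 and 0.48 (limma adjusted p = 0.00276 and 0.0143). The first Map2k6 probe read 3.10 and 0.626 in the combination, 26.7 and 23.6 with RVX2135, 15.4 and 14.0 with VE-821, and 43.4 and 33.7 in DMSO. Septin10, a cytoskeletal GTPase, differed by 0.53 (limma adjusted p = 0.0133). The calls of Fyco1, Septin10 and the second Map2k6 probe did not hold when 1 array was left out. Fyco1 then differed by 0.43 without the second VE-821 array, Septin10 by 0.49 and 0.36 without the first RVX2135 or the first VE-821 array, and Map2k6 by 0.39 and 0.37 without the second RVX2135 or the first VE-821 array.

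Of the 12 brightest members, 10 were called lower with RVX2135 than with VE-821 and none higher. Over all probes 11.9% were called lower and 12.5% higher, and the shares for probes of like brightness were not counted. Osbp2 differed by -1.24 and Lgr5 by -1.25, Thbd by -0.80, Hvcn1 by -0.74 and Kcnn4 by -0.66 (limma adjusted p = 2.14e-05, 3.29e-05, 0.000695, 0.000445 and 0.00154). Cbfa2t3 differed by -0.49, Cd22 by -0.41 and Camk2b by -0.38 (limma adjusted p = 0.0222, 0.0291 and 0.0359). Those 3 calls were lost without the second RVX2135 array or without the first VE-821 array. Without the second RVX2135 array the differences were -0.36 for Cbfa2t3, -0.35 for Cd22 and -0.29 for Camk2b, and without the first VE-821 array -0.32, -0.44 and -0.30. Leaving out either of the other 2 single-drug arrays also ended the call of Cd22, and leaving out the second VE-821 array that of Camk2b. Tspan2 differed by -0.18 and Tgfb3 by 0.36 and neither was called (limma adjusted p = 0.364 and 0.154), but Tgfb3 passed at 0.69 without the second RVX2135 array.

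Sorted by textbook role, with groups drawn up once the members were known, the members fell into 8 groups and a remainder. The counts by group were not tested. For comparison, 31.3% of all members were called lower and 7.82% higher, and of all probes 11.9% and 12.5%. Receptors and surface molecules made up 25 probes, of which 13 were lower and 2 higher with RVX2135. Pecam1, an adhesion receptor, differed by -0.71 and Il15ra and Il6ra, cytokine receptor chains, by -0.90 and -0.88 (limma adjusted p = 0.00709, 0.000618 and 0.000541). S1pr4, a receptor for sphingosine 1-phosphate, differed by 0.39 (limma adjusted p = 0.0458). The calls of Pecam1 and S1pr4 were lost without the second RVX2135 array, at -0.44 and 0.27. S1pr4 was also not called without the first or without the second VE-821 array, at 0.38 and 0.39. Cd2 and Cd84, adhesion molecules of lymphocytes, differed by -0.42 and -0.34 and were not called (limma adjusted p = 0.0625 and 0.0549), although Cd2 passed at -0.63 without the second VE-821 array. Cd180, a Toll-like receptor homologue of B cells, was at -0.32 and not called (limma adjusted p = 0.159), and passed at -0.53 without the first RVX2135 array.

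Of 6 ion channel and pump genes, Hvcn1, Kcnn4, Calhm6, Pkd1l3 and the proton pump gene Atp4a were lower with RVX2135, and the potassium channel gene Kcna3 was not called. Among 21 probes of intracellular signalling proteins 5 were lower and 2 higher, the higher ones being both of Map2k6. Of 7 probes of secreted ligands and matrix proteins 4 were lower and 3 were not called. Of 5 interferon-inducible genes Gvin1, Igtp and Trim30a were lower and Dhx58 and Sp110 were not called. Trim30a, an antiviral tripartite motif protein, read 4.53 and -0.0575 in the combination, 13.8 and 10.4 with RVX2135, 49.1 and 46.4 with VE-821, and 35.7 and 22.5 in DMSO, a difference between the single drugs of -1.06 (limma adjusted p = 9.22e-05).

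Of 13 probes of transcription and chromatin genes 2 were lower and 1 was higher, near the 11.9% and 12.5% called over all probes. Hdac7, a class II histone deacetylase, was the higher one. It read 1.04 and -3.11 in the combination, 41.5 and 50.04 with RVX2135, 33.2 and 31.3 with VE-821, and 77.6 and 61.5 in DMSO, and differed by 0.52 (limma adjusted p = 0.00875). That call was lost without the second RVX2135 array, at 0.37, and without the second VE-821 array, at 0.47. Pou2f2, the octamer-binding factor Oct2 of B cells, read 4.75 and 1.47 in the combination, 10.7 and 2.16 with RVX2135, 14.0 and 18.6 with VE-821, and 68.4 and 46.5 in DMSO. It was low with each drug and the single drugs were not called apart at -0.37 (limma adjusted p = 0.0821), though without the first RVX2135 array it passed at -0.57. The group also held Myb, Mybl2, the Myc antagonist Mnt, and the SWI/SNF subunits Smarcc1 and Smarcc2.

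DNA damage and cell division genes gave 1 call in 8 probes, a higher one, near the 12.5% called higher over all probes. That call was of Neil3. It was not detected on either VE-821 array, and RVX2135 was at least 1.24-fold higher (limma adjusted p = 0.012). The call was lost without the first RVX2135 or the second VE-821 array. Of 16 probes of metabolic proteins 7 were lower and 1 higher. St3gal4, a sialyltransferase, differed by -0.67 and Sirt5, a mitochondrial desuccinylase, by -0.71 (limma adjusted p = 0.00382 and 0.00213), while Pld4, an endolysosomal exonuclease, was not called at 0.15 (limma adjusted p = 0.448). Other members of the lists were not called either, among them Tirap, an adaptor of Toll-like receptors, at -0.17, and Bbs12, a chaperonin-like cilium protein, at -0.14 (limma adjusted p = 0.338 and 0.371). Trim37 and Trim46, of the tripartite motif family, stood at -0.05 and -0.04 (limma adjusted p = 0.793 and 0.812).

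**Figure D5:**
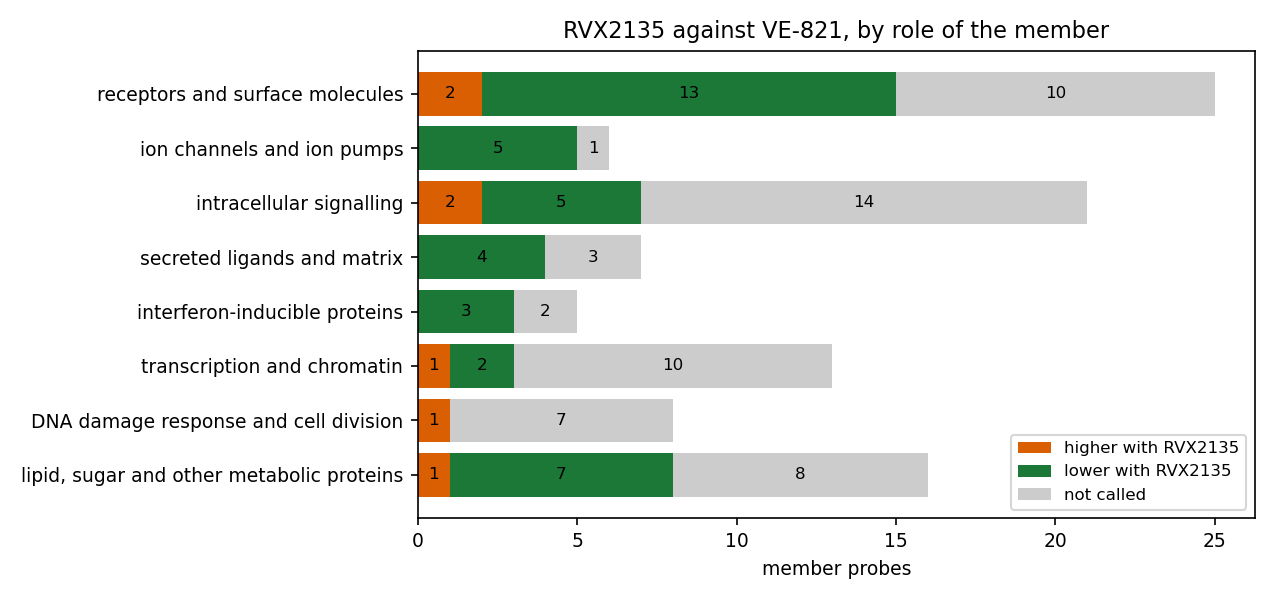
Number of lost probes (horizontal axis) called higher, called lower or not called for RVX2135 against VE-821, by textbook role of the gene; probes of 74 genes with no assigned role are not drawn. Receptors and surface molecules, the largest group drawn, hold the most lower calls, 13 of 25 probes. Of all members 31.3% and of all probes 11.9% were called lower. Lower calls were 5 of 6 for ion channels and pumps, 3 of 5 for interferon-inducible proteins and 4 of 7 for secreted ligands and matrix. They were 7 of 16 for metabolic proteins, 5 of 21 for signalling, 2 of 13 for transcription and chromatin and 0 of 8 for DNA damage and cell division.

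The loss of a probe was not always the loss of its gene. Of the 170 genes, 75 had a further probe outside the members, and 39 had one that was detected on both combination arrays. The other 131 genes had no probe detected on both combination arrays, but 95 of them had no probe outside the members to look at. A further Hvcn1 probe read 25.04 and 17.7 in the combination, against 696 and 548 in DMSO, so it stayed above background at a far lower level. A further Cd22 probe read 12.3 and 14.5 in the combination, against 397 and 312 in DMSO, close to the detection limit. A further Ankrd6 probe read 42.8 and 33.6 in the combination, against 245 and 179 in DMSO, and that of Rubcnl 13.4 and 10.5, against 102 and 88.8. Gsdmd, the pore-forming protein of pyroptosis, had further probes at 22.1 and 17.6 in the combination against 116 and 95.2 in DMSO, and at 46.7 and 40.9 against 287 and 225. A further Mospd3 probe read 12.2 and 11.7 in the combination, against 72.0 and 62.4 in DMSO. Each of these 6 genes was low in the combination on these further probes as well.

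Further probes of 1 gene could differ. Of the 2 further Kctd14 probes, 1 read 25.7 and 11.5 in the combination, against 53.1 and 44.8 in DMSO, and the other 7.41 and 9.37, against 88.4 and 84.2. The second was detected on 1 of 2 combination arrays. A further Lrrc1 probe read 68.3 on both combination arrays, against 47.0 and 38.3 in DMSO, so it went the other way. Another Lrrc1 probe, outside the DMSO threshold of the rule, read -4.22 and -1.998 in the combination, against 15.2 and 15.9 in DMSO, and was itself lost. The next 3 genes were picked after their values were seen. Chek1, the kinase that ATR activates, had a member probe lost in the combination and with RVX2135, and a further detected probe at 14.4 and 16.5 in the combination, against 53.8 and 51.2 in DMSO. Tkt, transketolase of the pentose phosphate pathway, had a further probe at 4446 and 4181 in the combination, against 4530 and 4948 in DMSO, and another at 13.4 and 20.5, against 48.1 and 49.6. Rbbp7, a histone-binding subunit of chromatin complexes, had further probes at 584 to 810 in the combination, against 1097 to 1494 in DMSO. For Tkt, Rbbp7 and Lrrc1 the member probe was lost while at least 1 further probe was plainly detected in the combination. The same held for others of the 39 genes. Further probes read 757 and 624 in the combination for Gps1, 624 and 447 for Naa20 and 122 and 134 for Smarcc1. Tirap, Mybl2, Sdc1, Map2k6, Myo1c and Phka2, named above, also had a further probe detected on both combination arrays.

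The members were also set beside lists of related genes, for which the combination was tested against DMSO in the same fit. Over all 11761 probes 28.6% were called higher and 29.9% lower in the combination. In B cell receptor signalling, where Cd22 and Syk were members, 13 of the 19 other measured genes were lower and 1 higher, with a median log2 difference of -1.32 against -0.01 over all probes. Cd79b, a signalling chain of the receptor, read 249 and 201 in the combination, against 3690.4 and 3191 in DMSO, a log2 difference of -3.52 (limma adjusted p = 1.68e-09). Among B lineage transcription factors, where Pou2f2 was a member, 17 of 24 others were lower and 5 higher, with a median of -1.10. Ikzf1 read 23.1 and 21.1 in the combination, against 500.3 and 405 in DMSO, a log2 difference of -3.35 (limma adjusted p = 1.02e-09). Both Cd79b and Ikzf1 were still detected in the combination.

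Of 13 other cytokine receptor genes 4 were lower and 4 higher, beside the members Il15ra, Il6ra, Il7r and Tnfrsf13b. Tnfrsf13c, the BAFF receptor, was lower in the combination at 9.84 and 0.667, detected on 1 of 2 arrays, against 208 and 149.8 in DMSO (limma adjusted p = 6.67e-08). Of 21 other lymphocyte surface genes 12 were lower and 5 higher, and of 18 other trafficking receptors 9 were lower and 4 higher. Of 31 glycosyltransferase genes 14 were lower and 5 higher. Of 42 histone modifier genes 11 were lower and 20 higher, beside the members Hdac7 and Sirt5. Of 13 Toll-like receptor genes 6 were lower and 3 higher, and of 38 cilium genes 13 were lower and 12 higher. Of 22 cytosolic ribosomal protein genes 1 was lower and 2 were higher, and none was a member. The homologous recombination, Notch and G protein lists held no member either. Of 22 homologous recombination genes 8 were lower and 7 higher, of 20 Notch pathway genes 6 were lower and 6 higher, and of 34 G protein genes 15 were lower and 5 higher.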

How the data were processed

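Transcripts were measured in λ820 cells on 8 one-colour Illumina arrays, and array titles gave the groups and replicate numbers. Per the file headers, the authors deposited intensities that are not normalized, on a linear scale, and beside each a detection p-value. Values below 0 show that a background was subtracted before deposit. The submitters' processing notes list GenomeStudio, and the computation of the deposited detection p-values is unstated in the sources used here. The authors also deposited normalized intensities, used as an alternative. The platform annotation, with symbols of GRCm38.p6, named 23978 of 25697 probes.

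Members, lists and roles were chosen with earlier results of these data known. Intensities were corrected and quantile-normalized with neqc of limma 3.58.1 in R 4.3.3 (offset 16, log2), and 11761 probes with a detection p-value under 0.05 on both arrays of a group were kept. The linear model gave each group its own mean over all 8 arrays (4 residual degrees of freedom), and calls had a two-sided Benjamini-Hochberg adjusted p under 0.05. A list gene was read from its brightest kept probe. The number of arrays limits the precision, and the fit was tested on simulated data. Named with values are the 12 members brightest in DMSO, the 8 brightest of each single-drug class, the 8 largest rises and falls for RVX2135 against VE-821, the probes nearest the thresholds, list members with up to 3 list genes each (a part of them given) and 8 members with a further detected probe. Differences between replicates 1 and 2 correlated between groups at -0.021 to 0.165, so the numbers were not taken to pair the arrays. Alternatives covered background correction, offset, normalization, filters, thresholds, a replicate block and left-out arrays. The values of 1 list are not reported here.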

Additional observations from a re-analysis of the deposited data

How the results depend on the processing

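The count of lost probes depended on the thresholds. Against 179 by the rule, 430 were found with a DMSO detection p-value under 0.05, 414 with 0.01 or more in the combination, 106 with 0.1 or more, and 350 to 388 without a replicate. Loss with RVX2135 was 26 by the rule, 142 with the wider DMSO threshold, 62 when 1 array sufficed, 82 at 0.01 or more on both arrays, and 104 to 109 without a replicate. Loss with VE-821 was 5 by the rule, 80 with the wider DMSO threshold, 11 and 3 with 0.01 or 0.1 in the combination, 23 when 1 array sufficed, 32 at 0.01 or more, and 59 to 65 without a replicate. The looser thresholds and the single arrays admit more probes by construction.

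For RVX2135 against VE-821, 2864 of all probes were called, and 1763 to 2002 without an array of these groups. Member calls were 70, with 14 higher and 56 lower, and between 55 and 73 under the alternatives. The replicate block gave 71 member calls, 70 of them shared with the 70, and changed the call of none of the named members. No result reversed. Of 633 values of named members under the alternatives, 593 kept their side of the threshold, 32 lost a call and 8 gained one. Calls in the combination against DMSO numbered 6881, and 5148 to 6994 under the alternatives.

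Signal over background limits these values: 147 of 179 members lay under an intensity of 50 in DMSO. Most bounds on the losses are small, in part because the offset added before log2 shrinks the fold of dim probes.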

Other observations

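The same thresholds applied in the other direction took 150 of the 8804 named probes detected in the combination (detection p-value under 0.01 on both arrays), which were at 0.05 or more on both DMSO arrays. Of 550 unnamed probes detected in DMSO, 14 were lost in the combination. RVX2135 alone took 21 probes to background that the combination did not lose by the rule, among them those of Cd40, Ptpn22, Mef2d, Ada and Pde4d. Cd40, the costimulatory receptor of B cells, was higher in the combination than in DMSO on its brightest probe, with intensities of 221 and 180.3 in the combination against 85.2 and 77.7 in DMSO (log2 difference 1.46, limma adjusted p = 7.64e-07). VE-821 alone took 7 such probes to background, among them those of Eps8, Ptp4a3 and Ypel5.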
